A study of Mus musculus with 6 samples.

Results

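The myostatin, activin and follistatin axis is a set of secreted ligands, the proteins that bind them outside the cell and the receptors that receive them. Its genes were taken by symbol, 10 in all, and all 10 had an entry among the 23367 of the deposited table. They are the ligand genes Mstn, Gdf11, Inhba and Inhbb, the follistatin family genes Fst, Fstl1 and Fstl3, and the receptor genes Acvr1b, Acvr2a and Acvr2b. All 10 also passed the filter on low counts that left 16882 genes for testing.

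Myostatin (Mstn) and its close relative Gdf11 are ligands of the transforming growth factor β superfamily, and myostatin is made chiefly by skeletal muscle, where it limits muscle mass. Activins are dimers of the inhibin β subunits encoded by Inhba and Inhbb. All of these ligands bind the type II receptors ActRIIA and ActRIIB (Acvr2a and Acvr2b), which recruit a type I receptor such as ALK4 (Acvr1b) and lead to phosphorylation of SMAD2 and SMAD3. Follistatin (Fst) and follistatin-like 3 (Fstl3) wrap around the ligands and keep them from their receptors. Fstl1 carries a follistatin domain but is a more distant relative, made widely by mesenchymal cells.

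To follow these genes through the growth of a muscle, polyadenylated RNA of the gastrocnemius, a calf muscle, was examined in wild type FVB mice at 5 stages in 6 libraries. The stages were embryonic day 18.5 (E18.5, male and female mice pooled), postnatal day 2 (PN2, males, RNA of several mice pooled), PN14 (males, replicates 1 and 2, each from its own mouse), PN28 (1 male) and adult (22 weeks, 1 male). Each library has 1 value per gene on 2 scales. FPKM divides the fragments of a gene by the length of its model and by the counts on genes in the library. TMM CPM divides its counts by a library total that was scaled between libraries by the trimmed mean of M values, and it is not divided by length.

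The libraries held between 125402932 and 157868359 counts on genes, so that a count of 3 corresponded to between 0.0131 and 0.0295 TMM CPM. The TMM factors were 1.45 for both perinatal libraries, between 0.841 and 1.01 for the PN14 pair, 0.785 for PN28 and 0.714 for the adult. Over the same libraries the 20 most abundant genes took between 16.0% and 36.9% of the counts, more in the older ones. A flat FPKM therefore becomes a rising TMM CPM, and both scales are given wherever they part. Every library had a sequencing lane of its own by the column names, so lane and stage cannot be told apart. Summed FPKM of 6 myofibre markers lay between 17580 and 69770 and was lowest at E18.5.

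A gene was called if it differed at least 2-fold and its p in edgeR's quasi-likelihood test, after adjustment by Benjamini and Hochberg over all genes, was under 0.05. All adjusted p-values below are of that kind unless another test is named. Only PN14 had replicates, so every p-value rests on the spread between its 2 mice and assumes that the other stages vary alike. "Rose" and "fell" are used below for called genes only. The difference of a gene between the PN14 mice is the one direct measure of spread in these data.

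The genes lie apart in the mm9 genome, with GENCODE M1 gene models. Among the ligand genes, Mstn spans chr1:53118507-53124923 on the plus strand in 3 exons and Gdf11 spans chr10:128319351-128328774 on the minus strand in 3 exons. Inhba spans chr13:16103684-16119044 on the plus strand in 5 exons, and Inhbb spans chr1:121312042-121318825 on the minus strand in 2 exons. In the follistatin family, Fst is at chr13:115242470-115249159 on the minus strand with 6 exons. Fstl1 is at chr16:37776959-37836600 on the plus strand with 11, and Fstl3 at chr10:79240017-79245375 on the plus strand with 5. The receptor genes lie on plus strands, with Acvr1b at chr15:101004556-101043032 in 9 exons, Acvr2a at chr2:48669629-48758789 in 11 and Acvr2b at chr9:119311562-119342619 in 10. The counts and FPKM together imply a Gdf11 model of 1.76 kb where the GENCODE transcript has 4062 bases, and an Inhba model of 1.47 kb where it has 1957 bases. Reads were not counted on the longer models, so how the FPKM of these genes would stand on them is not known. Related genes could share reads, so their transcripts were compared. The longest identical run was 12 bases for Mstn and Gdf11, 18 for Inhba and Inhbb, 14 for Acvr2a and Acvr2b, and 12 for Fst with Fstl3 or with Fstl1. All of these runs were shorter than a sequencing read.

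The promoters of Mstn and Acvr2a are shown because the profiles of these genes over the 6 libraries were the closest of any pair among the 10. RefSeq's promoter table (GRCm38.p6) held 9 of the 10 genes, Fst being the one without an entry. The 250 bases before the start are given 5′ to 3′ on the gene's strand, with E-boxes, the CANNTG motif that muscle regulatory factors among others bind, in capitals. That of Mstn lies at chr1:53061390-53061639 and that of Acvr2a at chr2:48813859-48814108, both on the plus strand.
Mstn: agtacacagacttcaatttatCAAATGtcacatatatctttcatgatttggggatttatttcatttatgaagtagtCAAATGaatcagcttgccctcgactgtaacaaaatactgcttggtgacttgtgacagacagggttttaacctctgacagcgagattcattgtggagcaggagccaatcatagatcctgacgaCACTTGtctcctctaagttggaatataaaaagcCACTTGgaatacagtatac
Acvr2a: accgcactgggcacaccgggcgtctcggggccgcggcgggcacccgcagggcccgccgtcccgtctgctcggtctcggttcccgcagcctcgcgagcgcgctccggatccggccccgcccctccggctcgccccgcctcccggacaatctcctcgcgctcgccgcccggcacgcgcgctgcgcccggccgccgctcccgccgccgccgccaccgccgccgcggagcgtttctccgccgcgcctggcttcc
The Mstn window held 4 E-boxes, whose first bases lie at -229, -174, -52 and -19 from the start, and 1 TATAAA. The Acvr2a window held neither motif. Of 32851 windows of this length, 66.2% held at least 1 E-box, 3.84% held 4 or more, and 12.4% held TATAAA, searched on both strands. The SMAD-binding letters CAGAC were found 2 times before Mstn and 1 time before Acvr2a, and in 42.2% of all windows.

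Between late gestation and the adult most genes of the axis were called with TMM, in both directions, but fewer with library size alone. From E18.5 to adult, 8 of 10 genes were called, beside 44.9% of all genes tested. There were 5 that rose, namely Mstn, Gdf11, Inhbb, Acvr1b and Acvr2a, where 21.4% of all genes rose, and 3 that fell, namely Inhba, Fst and Fstl1, where 23.6% of all genes fell. The median log2 fold change of the 10 genes was 0.90, and that of all genes was -0.05. Scaling decided part of this split. With library size alone in place of TMM, the median of all genes moved to -1.08, 53.6% of all genes were called (7.98% rising, 45.6% falling), and 4 of the 10 were called, with only Acvr1b rising and Inhba, Fst and Fstl1 falling.

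**Figure D1:**
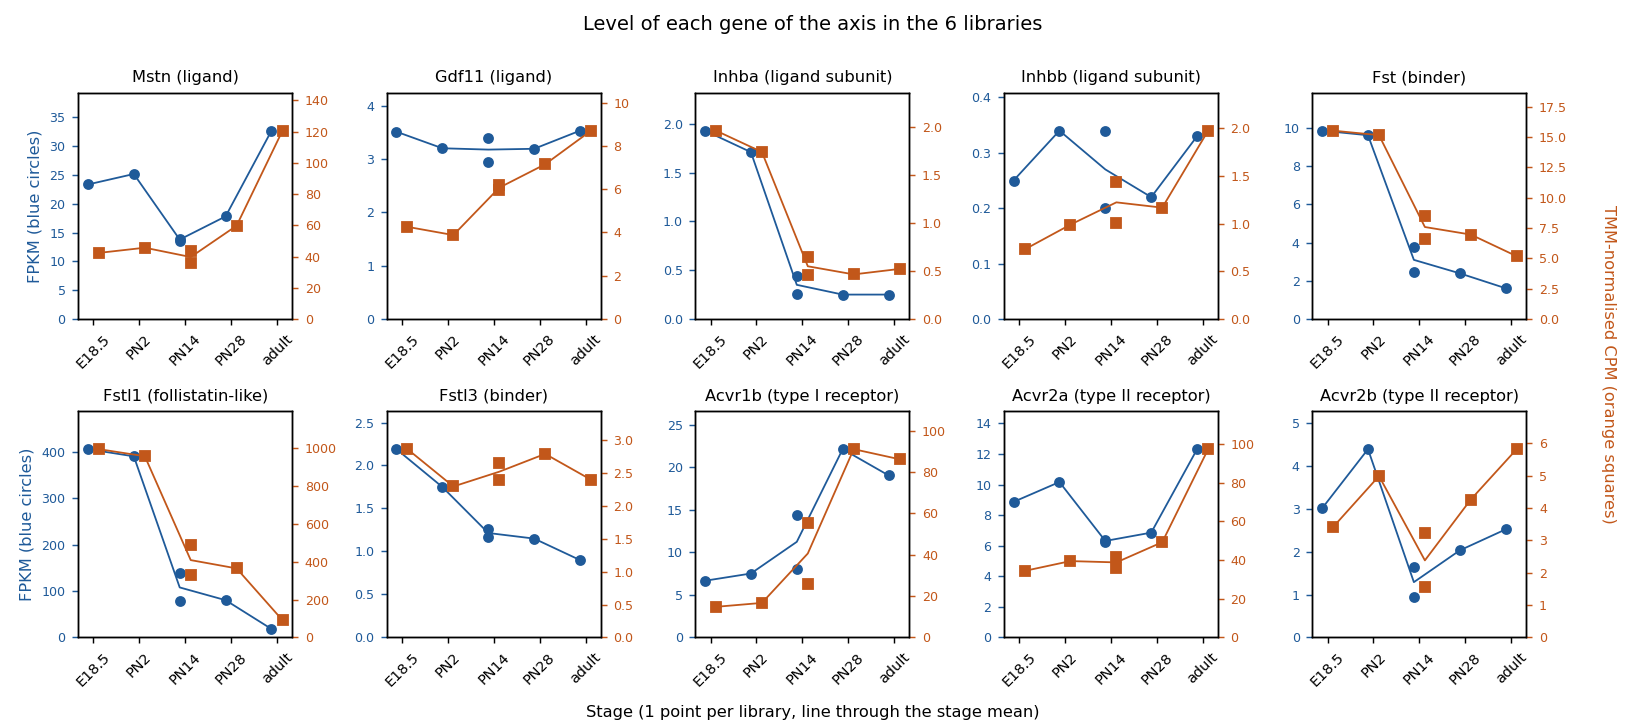
Level of each of the 10 genes in the 6 libraries, in FPKM (blue circles, left axis) and TMM CPM (orange squares, right axis), with a point per library and a line through the stage mean. Fst, Fstl1 and Inhba go down and Acvr1b goes up on both scales, whereas Gdf11 is flat in FPKM, between 2.95 and 3.53, and goes up in TMM CPM.

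Mstn, the myostatin gene, was the most abundant of the 4 ligand genes of the axis by FPKM in every library and stood highest in the adult. Its FPKM was 23.3 at E18.5 and 25.2 at PN2, then 13.96 and 13.60 in the PN14 pair, 17.8 at PN28 and 32.7 at 22 weeks, from between 4614 and 12280 counts. On this scale the PN14 mice were the lowest and the adult the highest, and the PN14 mice differed by an SD of 0.255 FPKM. Its TMM CPM was 42.3 at E18.5, 45.6 at PN2, 39.7 ± 5.76 (SD, n = 2) at PN14, 59.7 at PN28 and 121 at 22 weeks. On the TMM scale E18.5, PN2 and PN14 lay within about 1 SD of each other, with PN28 and then the adult above them.

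Mstn rose 2.85-fold from E18.5 to adult in TMM CPM (log2 fold change 1.51, SE 0.239, adjusted p = 0.00409). The log2 fold change was 0.49 with library size alone, which was not called, and the adjusted p lay between 8.46e-06 and 0.263 over the 6 alternative fits. With TMM the rise lay late, on a single library at PN28 and a single adult library. From PN2 to PN14 the log2 fold change was -0.20 (SE 0.201, adjusted p = 0.469). With library size alone it was -0.87 there (adjusted p = 0.0184), short of the fold threshold. From PN28 to adult the TMM value was 1.01 (SE 0.237, adjusted p = 0.113). That step was called by edgeR's exact test at an adjusted p of 0.0221 (alternative fits between 0.0221 and 0.217). From PN14 to adult, a comparison added after the data had been seen, Mstn rose with a log2 fold change of 1.60 (SE 0.195, adjusted p = 0.0120).

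Gdf11, whose product shares most of its mature sequence with myostatin and which patterns the embryonic axis, held a nearly constant FPKM. Its FPKM was 3.51 at E18.5 and 3.20 at PN2, then 2.95 and 3.40 in the mice of PN14, 3.19 at PN28 and 3.53 as adult, from between 652 and 976 counts. Each of the other stages lay within 2 SD of the PN14 mean on this scale (3.18 ± 0.318 FPKM, SD, n = 2). Its TMM CPM was 4.26, 3.88, 6.07 ± 0.161 (SD, n = 2), 7.15 and 8.70 in stage order, and from E18.5 to adult Gdf11 rose by that measure (log2 fold change 1.03, SE 0.272, adjusted p = 0.0217). The call was set by the scaling, since with library size alone the log2 fold change was 0.01, and the adjusted p lay between 0.0130 and 0.995 over the 6 alternative fits. It was lost with DESeq2's Wald test too (adjusted p = 0.0517), and with a filter at a mean of 1 CPM, where the log2 fold change was 0.95.

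Inhba, which encodes the subunit of activin A, fell early and was low from PN14 onward. Its FPKM was 1.93 at E18.5 and 1.71 at PN2, then 0.26 and 0.44 in the PN14 pair, 0.25 at PN28 and 0.25 at 22 weeks, from 449, 395, 48, 97, 54 and 53 counts. The libraries up to PN2 and those after it did not overlap on either scale, and PN28 and the adult lay within 1 SD of the PN14 mean of 0.35 ± 0.127 FPKM (SD, n = 2). Its TMM CPM was 1.96, 1.74, 0.548 ± 0.132 (SD, n = 2), 0.464 and 0.521 in stage order.

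Inhba was the sole gene of the 10 called from PN2 to PN14, where it fell (log2 fold change -1.65, SE 0.380, adjusted p = 0.0250), beside 23.0% of all genes tested, 11.8% rising and 11.2% falling. It also fell from E18.5 to adult (log2 fold change -1.91, SE 0.477, adjusted p = 0.0182). DESeq2's Wald test called neither, with adjusted p = 0.0851 and 0.0639. Over the 6 alternative fits the adjusted p ran from 0.000369 to 0.0851 for the first interval and from 0.000220 to 0.0639 for the second, and the direction was the same in each.

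Inhbb, which encodes the subunit of activin B, was the lowest of the ligand genes before PN14 and came level with Inhba afterwards. Its FPKM was 0.25 at E18.5 and 0.34 at PN2, then 0.20 and 0.34 in the mice of PN14, 0.22 at PN28 and 0.33 as adult, from between 106 and 225 counts. All of these lay within the range of the PN14 mice, so no stage stood apart in FPKM. The TMM CPM was 0.728, 0.989, 1.22 ± 0.308 (SD, n = 2), 1.17 and 1.97 in stage order, and it rose from E18.5 to adult (log2 fold change 1.44, SE 0.454, adjusted p = 0.0390). With library size alone the log2 fold change was 0.41, DESeq2's Wald test gave an adjusted p of 0.140 and the filter at 1 CPM one of 0.0566. None of these was a call, and the adjusted p lay between 0.0138 and 0.615 over the 6 alternative fits.

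**Figure D2:**
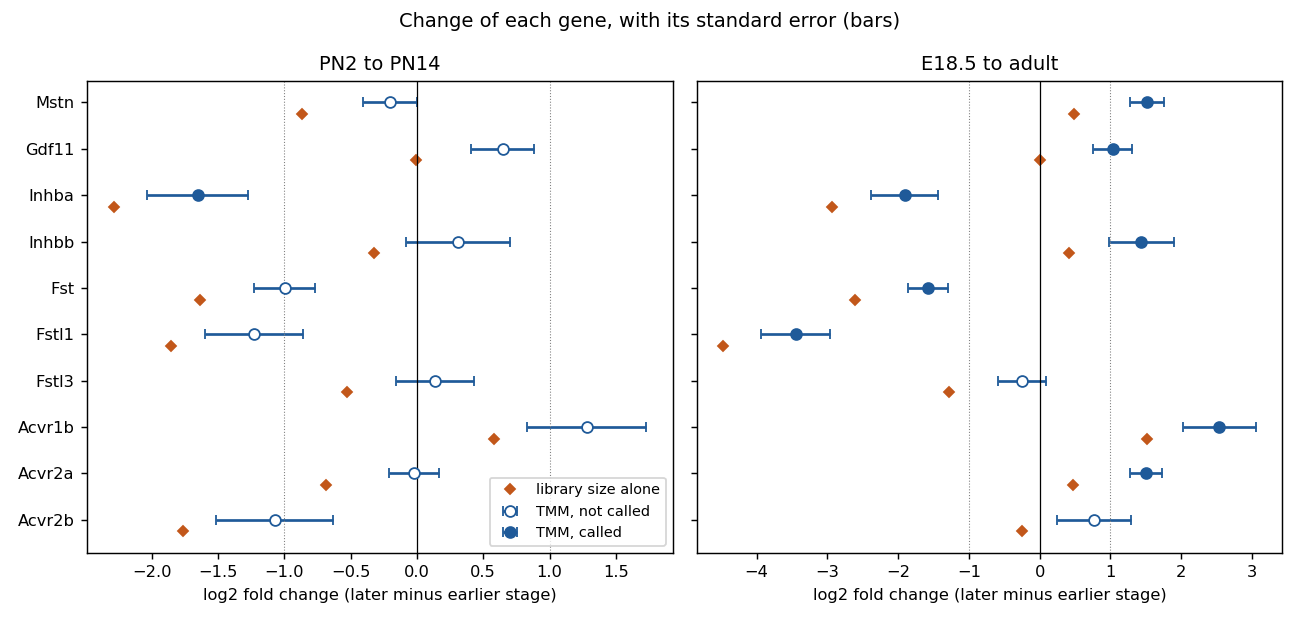
Log2 fold change of each gene from PN2 to PN14 (left) and from E18.5 to adult (right), with TMM (blue circles, bars are the standard error, filled where called) and with library size alone (orange diamonds). Dotted lines mark a log2 fold change of 1 in size, and every diamond lies to the left of its circle, with Gdf11 at 0.01 in place of 1.03 from E18.5 to adult.

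Fst, the gene of follistatin, which binds activins almost irreversibly and myostatin tightly, fell from the perinatal stages to the adult. Its FPKM was 9.86 at E18.5 and 9.62 at PN2, then 2.44 and 3.75 in the PN14 pair, 2.39 at PN28 and 1.61 at 22 weeks, from 3560, 3449, 700, 1291, 811 and 527 counts. The perinatal libraries stood above all the later ones, and PN28 lay within 1 SD of the PN14 mean (3.10 ± 0.926 FPKM, SD, n = 2), with the adult below both PN14 mice. By TMM CPM it stood at 15.5, 15.2, 7.58 ± 1.34 (SD, n = 2), 6.96 and 5.18 in stage order.

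Fst fell from E18.5 to adult in TMM CPM (log2 fold change -1.58, SE 0.283, adjusted p = 0.00595) and was called in each of the 6 alternative fits, where the log2 fold change ran from -2.61 to -1.58. Between PN2 and PN14 the adjusted p of Fst was 0.0256 and its log2 fold change -0.998 (SE 0.231), just short of the fold threshold. It was called there in 5 of the 6 alternative fits, all but edgeR's exact test. The RNA came from whole muscle, where fewer cells of a type and less RNA per cell cannot be told apart. Summed FPKM of the satellite cell markers Pax7, Myf5 and Cdh15 was 59.6 at E18.5 and 53.0 at PN2, then 11.4 and 17.6 in the mice of PN14, 8.25 at PN28 and 6.82 as adult. All 3 markers fell from E18.5 to adult, with a log2 fold change of -3.60 for Myf5, -3.14 for Pax7 and -1.86 for Cdh15, which made up between 71.5% and 90.8% of the sum. The ratio of Fst to the sum lay between 0.165 at E18.5 and 0.290 at PN28, whereas that of Fst to Pax7 lay between 1.87 and 2.81 up to PN28 and was 6.19 in the adult. The part of these markers in the change of Fst was not tested.

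By FPKM, Fstl1 was the most abundant gene of the axis in every library other than the adult, where Mstn and Acvr1b passed it, and it had the largest fold change of the 10 from E18.5 to adult. Its FPKM was 406 at E18.5 and 391 at PN2, then 77.6 and 138 in the PN14 pair, 80.4 at PN28 and 18.3 at 22 weeks, from between 9297 and 228354 counts. The levels came in 3 steps that did not overlap, with the perinatal libraries on top, PN14 and PN28 in the middle and the adult at the bottom. In TMM CPM it was 996, 959, 409 ± 114 (SD, n = 2), 365 and 91.3 in stage order.

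Fstl1 fell 10.9-fold from E18.5 to adult in TMM CPM (log2 fold change -3.45, SE 0.486, adjusted p = 0.00290) and was called in each of the 6 alternative fits. The difference from PN2 to PN14 was not called (log2 fold change -1.23, SE 0.370, adjusted p = 0.0517). Alternative fits gave it an adjusted p between 2.48e-08 and 0.0532 there and called it in 4 of 6, those with library size alone, no filter, the Wald test and the exact test. From PN28 to adult the log2 fold change was -2.0 (SE 0.459, adjusted p = 0.110), with an adjusted p between 1.64e-06 and 0.126 and 4 calls over the same fits. From PN14 to adult Fstl1 fell with a log2 fold change of -2.16 (SE 0.428, adjusted p = 0.0246).

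The 5 fibroblast markers were followed beside it, namely Pdgfra, Dpt, Lum and the collagen genes Col1a1 and Col3a1. Their summed FPKM was 4128 at E18.5 and 3208 at PN2, then 992 and 1250 in the mice of PN14, 993 at PN28 and 137 as adult. The collagen genes made up 93.9% of that sum at E18.5 and 63.5% in the adult, so its steps are mostly theirs. From E18.5 to adult 4 of 5 fell, with a log2 fold change of -4.45 for both collagen genes, -1.97 for Pdgfra and -1.63 for Lum, while Dpt was not called (-0.92). From PN2 to PN14 none was called, with a median log2 fold change of -0.78, and from PN28 to adult none was called either, with values from -3.34 for Col1a1 to -0.45 for Pdgfra.

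How Fstl1 stood to its markers depended on the collagens. Fstl1 lay between 7.82% and 13.3% of the sum of all 5 in each library. Its ratio to the sum of Pdgfra, Dpt and Lum was 1.61 at E18.5 and 1.75 at PN2, then 0.988 and 1.23 in the PN14 pair, 0.842 at PN28 and 0.366 at 22 weeks, lowest in the adult. The part of the markers in the change of Fstl1 was not tested.

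**Figure D3:**
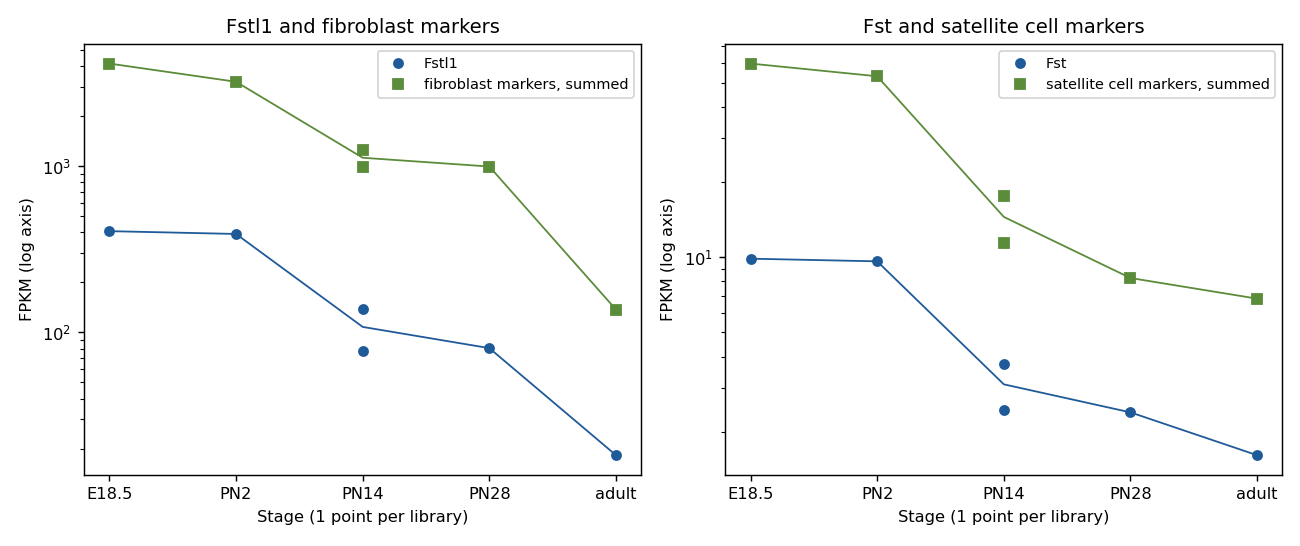
Fstl1 beside the summed fibroblast markers (left) and Fst beside the summed satellite cell markers (right), in FPKM on a log axis by stage, with a point per library and a line through the stage mean. Fstl1 goes from 406 to 18.3 FPKM and its marker sum, most of it from 2 collagen genes, from 4128 to 137 FPKM.

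Fstl3, a second inhibitor of activins and myostatin that lacks the heparin-binding part of follistatin, was low and was called in no interval. Its FPKM was 2.19 at E18.5 and 1.75 at PN2, then 1.17 and 1.26 in the PN14 pair, 1.15 at PN28 and 0.90 at 22 weeks, from between 244 and 656 counts. On this scale it went down with age. In TMM CPM it stayed between 2.29 and 2.86 at every stage, with 2.52 ± 0.179 (SD, n = 2) at PN14. From E18.5 to adult the log2 fold change was -0.26 (SE 0.340, adjusted p = 0.551), and from PN2 to PN14 it was 0.13 (SE 0.294, adjusted p = 0.751), or -0.52 with library size alone.

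Acvr1b, the type I receptor ALK4, rose with age and had the largest rise among the 10 genes from E18.5 to adult. Its FPKM was 6.66 at E18.5 and 7.51 at PN2, then 14.4 and 8.08 in the mice of PN14, 22.1 at PN28 and 19.0 as adult, from between 3398 and 10606 counts. The perinatal libraries were lowest and the 2 oldest highest, with the PN14 mice spread between them. Its TMM CPM was 14.8, 16.7, 40.6 ± 20.7 (SD, n = 2), 91.0 and 86.2 in stage order, and PN14 replicate 2 stood at 25.9 where replicate 1 stood at 55.3. Replicates 1 and 2 also had summed FPKM of 66240 and 54000 for the myofibre markers and of 157 and 627 for 3 Schwann cell markers, whose part in the difference was not tested.

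Acvr1b rose 5.81-fold from E18.5 to adult in TMM CPM (log2 fold change 2.54, SE 0.515, adjusted p = 0.00897), and each of the 6 alternative fits called the rise, with log2 fold changes between 1.51 and 2.54. The step from PN2 to PN14 was not called (log2 fold change 1.28, SE 0.448, adjusted p = 0.0756), although 3 of the 6 alternative fits called it, with adjusted p between 0.00804 and 0.163 over all of them. The PN14 mouse used set the size of this step. Without replicate 1 the log2 difference in TMM CPM was 0.63, and without replicate 2 it was 1.72. The PN14 to PN28 step moved the other way, from 1.17 (SE 0.408, adjusted p = 0.557) with both mice to 1.81 without replicate 1 and 0.70 without replicate 2.

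Acvr2a, the gene of the receptor ActRIIA, was the more abundant type II receptor gene throughout. Its FPKM was 8.87 at E18.5 and 10.2 at PN2, then 6.24 and 6.39 in the PN14 pair, 6.86 at PN28 and 12.3 at 22 weeks, from between 4416 and 9919 counts. As for Mstn, the PN14 mice were lowest and the adult highest, and the PN14 mice were close together (6.32 ± 0.106 FPKM, SD, n = 2). The TMM CPM was 34.4, 39.5, 38.8 ± 4.27 (SD, n = 2), 49.3 and 97.4 in stage order. Acvr2a rose 2.83-fold from E18.5 to adult by that measure (log2 fold change 1.5, SE 0.222, adjusted p = 0.00329), but with library size alone its log2 fold change was 0.48 and not called. The adjusted p lay between 4.29e-06 and 0.283 over the 6 alternative fits. From PN14 to adult it rose with a log2 fold change of 1.33 (SE 0.182, adjusted p = 0.0138), and from PN28 to adult the log2 fold change was 0.98 (SE 0.219, adjusted p = 0.104).

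Acvr2b, the gene of ActRIIB, which binds myostatin more tightly than ActRIIA does, was lower and less steady. Its FPKM was 3.01 at E18.5 and 4.39 at PN2, then 1.64 and 0.94 in the mice of PN14, 2.03 at PN28 and 2.52 as adult, from between 234 and 1136 counts. PN2 was highest and both PN14 mice were lowest. By TMM CPM it stood at 3.42, 4.99, 2.39 ± 1.19 (SD, n = 2), 4.27 and 5.82 in stage order, with PN14 replicate 1 at 3.22 and replicate 2 at 1.55. No interval gave a call with TMM. Acvr2b had a log2 fold change of -1.07 from PN2 to PN14 (SE 0.439, adjusted p = 0.111), and library size alone gave -1.77 and a call, with adjusted p between 0.00176 and 0.117 over the 6 alternative fits. From E18.5 to adult the log2 fold change was 0.77 (SE 0.524, adjusted p = 0.253) with TMM and -0.26 with library size alone.

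Across the other intervals between neighbouring stages none of the 10 genes was called. None was called from E18.5 to PN2, where 0.0296% of all genes were called, and the log2 fold changes of the 10 lay between -0.32 for Fstl3 and 0.55 for Acvr2b. None was called from PN14 to PN28, where the share of all genes was 0.0178%, and none from PN28 to adult, where it was 0.521%. In edgeR's test an unadjusted p under 0.05 was reached by 1121, 1420 and 3091 of all 16882 genes over these 3 intervals. DESeq2's Wald test called 0, 0 and 1 of the 10 there, and edgeR's exact test 0, 0 and 2. Of all genes, these tests called 5.54% and 6.79% from PN28 to adult.

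With library size alone the interval from PN2 to PN14 looked different. The median over all genes moved from a log2 fold change of -0.01 to one of -0.66, 34.5% of all genes were called (5.06% rising, 29.4% falling), and 4 of the 10 were called, all of them falling, namely Inhba, Fst, Fstl1 and Acvr2b. With DESeq2's Wald test 3 of the 10 were called, beside 21.3% of all genes, of which Acvr1b rose and Fst and Fstl1 fell. With the exact test 3 were called as well, beside 27.6% of all genes, and these were Inhba, Fstl1 and Acvr1b.

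The E18.5 library was the only one that held both sexes, and it was set aside in a check chosen after seeing the data. From PN2 to adult, 7 of the 10 genes were called, beside 40.0% of all genes. Mstn (log2 fold change 1.40), Gdf11 (1.17), Acvr1b (2.37) and Acvr2a (1.30) rose, where 19.1% of all genes rose, and Inhba (-1.74), Fst (-1.55) and Fstl1 (-3.39) fell, where 20.9% fell. Inhbb, with a log2 fold change of 0.997 and an adjusted p of 0.113, was the gene whose call was lost. From PN14 to adult, 3 of the 10 were called, beside 15.5% of all genes (5.66% rising, 9.82% falling), with Mstn and Acvr2a rising and Fstl1 falling. These comparisons share the adult library with that from E18.5 to adult.

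Ratios within a library do not depend on scaling between libraries, and those of Fst and Fstl1 to Mstn were lower in the adult than at any other stage. The Fst to Mstn ratio of FPKM was 0.423 at E18.5 and 0.382 at PN2, then 0.175 and 0.276 in the PN14 pair, 0.134 at PN28 and 0.0493 at 22 weeks, a log2 change of -3.10 from E18.5 to adult. The Fstl1 to Mstn ratio was 17.4, 15.5, 5.56 and 10.2 at PN14, 4.52 and 0.559 in the same order, a log2 change of -4.96. In both, the PN14 mice lay below PN2 and apart from each other. No test was made of a ratio, since a single library stood for each stage other than PN14.

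The Inhba to Inhbb ratio of FPKM was 7.72 at E18.5 and 5.03 at PN2, then 1.30 and 1.29 in the mice of PN14, 1.14 at PN28 and 0.758 as adult. The activin A subunit gene thus stood well above that of activin B before PN14 and near it from then on. Mstn made up between 76.5% and 88.8% of the summed FPKM of the 4 ligand genes, highest in the adult, and that sum was 29.0 at E18.5, 17.4 and 17.8 in the PN14 mice and 36.8 in the adult. The Mstn to Gdf11 ratio ran from 4.0 in PN14 replicate 2 to 9.26 in the adult. The Fst to Inhba ratio, by contrast, stayed between 5.11 and 9.56 in all 6 libraries.

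Among the receptors, the ratio of type I Acvr1b to type II Acvr2a was 0.751 at E18.5 and 0.738 at PN2, then 2.30 and 1.26 in the PN14 pair, 3.22 at PN28 and 1.55 at 22 weeks. Acvr1b was the lower of the pair before PN14 and the higher in every library from PN14 on. The Acvr2b to Acvr2a ratio lay between 0.147 in PN14 replicate 2 and 0.432 at PN2. Summed FPKM of both type II receptor genes was 11.9 at E18.5 and 14.6 at PN2, then 7.88 and 7.33 in the mice of PN14, 8.89 at PN28 and 14.8 as adult.

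**Figure D4:**
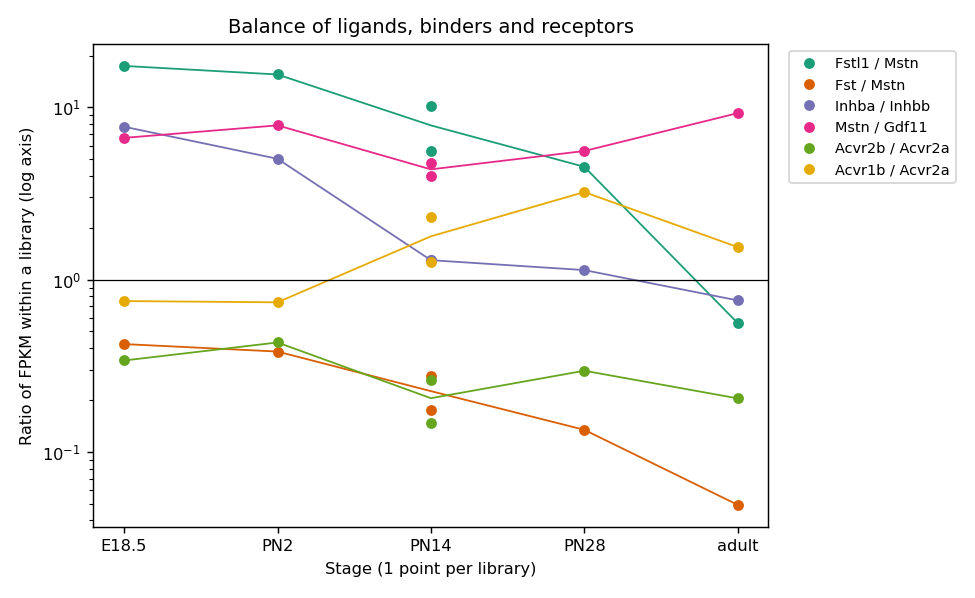
Ratios of FPKM between genes of the axis within each library, on a log axis by stage, with a point per library and a line through the stage mean. The Fstl1 to Mstn ratio goes from 17.4 to 0.559 and the Fst to Mstn ratio from 0.423 to 0.0493, while the Acvr1b to Acvr2a ratio crosses 1 between PN2 and PN14.

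Mstn and Acvr2a had the most similar profiles of any pair among the 10 genes. Likeness was measured as the root mean square difference between mean-centred log2 (TMM CPM + 0.1) values over the 6 libraries. It was 0.122 for Mstn and Acvr2a, 0.259 for Gdf11 and Inhbb and 0.293 for Fst and Inhba, and the pair farthest apart, Acvr1b and Fstl1, stood at 2.13. Over all 16881 other genes, those nearest to Mstn were Vps72 (0.0831), Arfgef1 (0.0836) and Phf20 (0.0958), with a median over all genes of 0.718. Those nearest to Fst were Rttn (0.0451), Ranbp1 (0.0461) and R74862 (0.0471), with a median of 0.679. These distances are a description over libraries that share a scaling.

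To place the 10 genes in their pathway, 63 further genes in 7 lists were followed, of which 58 were tested. Inhbc, Inhbe, Gdf3, Fstl5 and Tdgf1 did not pass the filter. From E18.5 to adult 21 of the 58 were called (36.2%), of which 7 rose and 14 fell, beside 44.9% of all genes, with a median log2 fold change of -0.37, where the 10 genes of the axis had 0.90. Between PN2 and PN14 the calls numbered 14 (24.1%, beside 23.0% of all genes), of which 3 rose and 11 fell, with a median of -0.30. With library size alone the split was 3 rising to 36 falling for the first interval and 2 to 27 for the second. Over all genes it was 7.98% to 45.6% for the first and 5.06% to 29.4% for the second.

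The proteases that cut ligand propeptides were the list with the largest share of calls from E18.5 to adult, 4 of 6, all falling, where 23.6% of all genes fell, with a median log2 fold change of -1.90. The fibroblast markers had a median of -1.97 over the same interval with 4 of 5 falling, and their part in the change of the proteases was not tested. BMP1 and the tolloid proteases free myostatin from its latent complex. Tll2 fell with a log2 fold change of -3.34 (11 counts in the adult), Tll1 with -2.30 and Pcsk5 with -1.99, and Bmp1, the most abundant of them, went from 46.9 FPKM at E18.5 to 6.60 in the adult (log2 fold change -1.80). Furin, which makes the first cut, had 21.9 FPKM at E18.5 and 12.01 in the adult and was not called (log2 fold change 0.16, adjusted p = 0.524). Tll2 alone of the 6 fell from PN2 to PN14 (log2 fold change -1.65, adjusted p = 0.0334), where 11.2% of all genes fell.

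Of the 5 other extracellular binders tested, 1 fell from E18.5 to adult, where 23.6% of all genes fell. This was Fstl4, with 79 counts at E18.5 and 0 in the adult, so no fold is given. The WFIKKN proteins bind myostatin and GDF11. Wfikkn2 stood at 4.76 FPKM at E18.5 and 2.39 at PN2, then 1.36 and 0.99 in the PN14 pair, 1.94 at PN28 and 3.86 at 22 weeks and was not called (log2 fold change 0.72, adjusted p = 0.152). Wfikkn1 stayed at or below 0.18 FPKM in each library and was not called (log2 fold change -0.05, adjusted p = 0.946).

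Of the 6 other ligand genes tested, 1 rose and 1 fell from E18.5 to adult, where 21.4% and 23.6% of all genes did. None was called from PN2 to PN14, where 23.0% of all genes were called. Inha encodes the α subunit, which pairs with the products of Inhba or Inhbb to make inhibins in place of activins. Its FPKM was 11.4 at E18.5 and 17.4 at PN2, then 20.6 and 22.8 in the mice of PN14, 9.51 at PN28 and 2.62 as adult, so that it was highest at PN14, where Inhba was already low. Inha fell from E18.5 to adult (log2 fold change -1.09, SE 0.206, adjusted p = 0.00712). It also fell from PN28 to adult (log2 fold change -1.72, adjusted p = 0.0499). That was the single call among the 58 genes in that interval, where 0.521% of all genes were called. The call was lost with a filter at a mean of 1 CPM. Nodal rose (log2 fold change 1.77, adjusted p = 0.0252) at no more than 0.43 FPKM, and with library size alone its log2 fold change was 0.74 and not called.

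Of the 5 other receptor genes tested, 1 rose and 1 fell from E18.5 to adult, where 21.4% and 23.6% of all genes did. Acvr1c, the type I receptor ALK7, rose with a log2 fold change of 3.70 (adjusted p = 0.00276), from 17 to 99 counts, and fell from PN2 to PN14 with -2.32 (adjusted p = 0.00956). Its FPKM was 0.01 at E18.5 and 0.29 at PN2, then 0.03 and 0.04 in the PN14 pair, 0.11 at PN28 and 0.08 at 22 weeks. The adipocyte marker Adipoq had 1.06, 21.99, 4.03, 2.82, 17.47 and 12.83 FPKM in the same libraries, above its E18.5 level in each later library. Adipoq and Plin1 rose from E18.5 to adult and fell from PN2 to PN14, as Acvr1c did, whereas Fabp4 was not called from E18.5 to adult and rose from PN2 to PN14 (log2 fold change 1.03). Fabp4 made up between 93.2% and 99.6% of the summed FPKM of the 3 adipocyte markers, which was 374 at E18.5 and 455 at PN2, then 484 and 628 in the mice of PN14, 493 at PN28 and 319 as adult. Their part in the change of Acvr1c was not tested. Bambi, a pseudoreceptor, fell (log2 fold change -1.43, adjusted p = 0.0123), and Tgfbr1, the type I receptor ALK5, was not called (log2 fold change -0.02, adjusted p = 0.947), but with library size alone it fell (-1.04 on the log2 scale, adjusted p = 0.0127).

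In the SMAD2/3 arm, inside the cell, 3 of 10 genes rose and 1 fell from E18.5 to adult, where 21.4% and 23.6% of all genes did. Smad3 rose with a log2 fold change of 2.33 (SE 0.341, adjusted p = 0.00322), with 10.4 FPKM at E18.5 and 11.5 at PN2, then 24.7 and 19.9 in the PN14 pair, 22.0 at PN28 and 25.7 at 22 weeks. It rose from PN2 to PN14 too (log2 fold change 1.64, SE 0.305, adjusted p = 0.0146), where with library size alone the log2 fold change was 0.96 and not called. Smad2, its partner, had 6.76 FPKM at E18.5 and 2.08 in the adult and fell short of the fold threshold (log2 fold change -0.68, adjusted p = 0.0281), which it passed with library size alone (log2 fold change -1.70).

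Zfyve9, which presents SMAD2 and SMAD3 to the receptor, rose as well (log2 fold change 2.19, adjusted p = 0.00194). Smad4, the shared partner, rose with TMM (log2 fold change 1.08, adjusted p = 0.00712) but had 19.27 FPKM at E18.5 and 20.03 in the adult and a log2 fold change of 0.06 with library size alone. Ski, a repressor of SMAD-driven transcription, fell from E18.5 to adult (log2 fold change -1.24, adjusted p = 0.00969) and from PN2 to PN14 (log2 fold change -1.11, adjusted p = 0.0154). The inhibitory Smad7 was not called (log2 fold change -0.58, adjusted p = 0.152), but fell with library size alone (-1.60 on the log2 scale, adjusted p = 0.00464). None of the 4 SMAD2/3-responsive genes was called with TMM from E18.5 to adult or from PN2 to PN14, where 44.9% and 23.0% of all genes were. With library size alone 2 fell from E18.5 to adult and 1 from PN2 to PN14, where 45.6% and 29.4% of all genes fell.

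The BMP arm, which shares the type II receptors with the activins, had 8 of 22 genes called from E18.5 to adult, 2 rising and 6 falling (36.4%, beside 44.9% of all genes), with a median log2 fold change of -0.48. Id2, a target of BMP signalling, fell with a log2 fold change of -2.01, and the ligand gene Gdf6 with -1.85. Grem1, which encodes the BMP antagonist gremlin 1, was also called, with 282 counts at E18.5 and 2 in the adult, and no fold is given. Bmpr2, a type II receptor of BMPs, rose with TMM (log2 fold change 1.21), and with library size alone its log2 fold change was 0.18 and not called. Between PN2 and PN14 9 of the 22 were called (40.9%, beside 23.0% of all genes, with a median log2 fold change of -0.39), 2 rising, among them Id1 (log2 fold change 1.62, or 0.92 and not called with library size alone), and 7 falling, among them Gdf6 (-3.69), Bmp7 (-1.77) and Bmpr1b (-1.71).

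**Figure D5:**
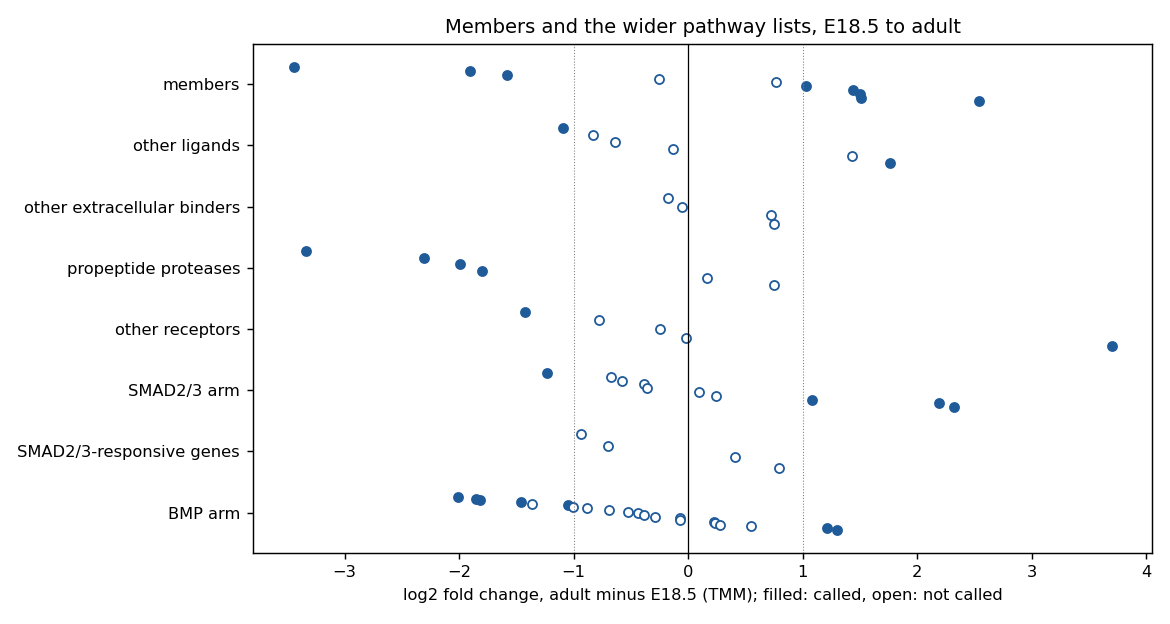
Log2 fold change from E18.5 to adult, with TMM, of the 10 genes of the axis (members, top line) and of the 7 further lists, with a point per tested gene, filled where called. Fstl4 and Grem1 are left out, having at most 3 counts in the adult, and 4 of the 6 propeptide proteases lie below a log2 fold change of -1.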

How the data were processed

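Polyadenylated RNA of gastrocnemius muscle was measured in 6 libraries of 5 stages. Per the labels and the study's methods, the authors aligned reads to mm9 with TopHat 2.0.5 and quantified RefSeq gene models with RSEM (version not given in the sources used here). The authors deposited expected counts, which are not normalized, and FPKM, normalized by gene model length and by library total. The deposited expected counts were whole numbers, so rounding them changed none. Of the 23367 entries, 2 repeat a symbol and were kept apart.

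Counts were analysed with edgeR 4.0.16 in R 4.3.3, using filterByExpr by stage (16882 genes kept), TMM and the quasi-likelihood test. The 6 libraries were fitted together by stage (1 residual degree of freedom, prior degrees of freedom 4.86, biological coefficient of variation 0.188). P-values were adjusted over all genes tested in each comparison by the Benjamini-Hochberg method. Calls required an adjusted p under 0.05 and a fold of 2 or more in either direction. The standard error was taken as the size of the log2 fold change divided by the square root of F. The alternatives were library size alone, DESeq2 1.42.0 size factors, no filter, a mean of at least 1 CPM, DESeq2's Wald test, edgeR's exact test and, for 2-fold differences without a test on log2 (CPM + 0.1), each PN14 replicate left out. The comparisons of PN2 and of PN14 with the adult were added after the data had been seen.

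On simulated data the test was tried with 200 genes changed by a log2 of 2, as many up as down. All other genes had the same mean share of counts in every library, and each gene had the same dispersion at all stages. The simulation thus held no shift in scaling between libraries and no difference in spread between stages, and cannot speak to either. The test recovered 195 of the 200 for PN2 to PN14, with 9 false calls among 204 over 16515 genes. For E18.5 to adult it recovered 188, with 17 false among 205 over 16514 genes. The members and lists were chosen with earlier results of these data known. All 10 members are named. From the wider lists a gene is named if it was called from PN2 to PN14 or from E18.5 to adult, up to the 3 largest changes per list and direction reaching 1 CPM in the higher stage, or if it is a defining gene of the pathway (Smad2, Smad3, Smad4, Smad7, Wfikkn1, Wfikkn2, Acvr1c, Tgfbr1, Furin). Bmp1 and Fstl4 lie outside that rule and were named after their values were seen. Some genes and sequences that these rules cover are not reported here. Coordinates and transcripts came from GENCODE M1 and the mm9 genome, and promoters from RefSeq. Python 3.11.15, pandas 2.3.3 and matplotlib 3.10.9 were used for tables and plots. Protein sequences and splicing were not analysed here.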

Additional observations from a re-analysis of the deposited data

How the results depend on the processing

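With 1 library at each stage other than PN14, the test assumes a common spread, and counts near the fold threshold moved with the settings. Of 400 values of the 10 genes under alternatives, 366 kept their direction and their side of the threshold (or moved by less than 1 SD), 10 lost a call, 18 gained one, 5 of those with a test reversed and 1 moved. Without a PN14 replicate, where no test was made, 5 of the values that moved by less than 1 SD changed sign, the log2 changes of Inhba, Inhbb, Fst and Fstl1 from PN14 to PN28 and of Acvr2a from PN2 to PN14, none of them called before. No paired analysis was possible because the stages came from different mice. Causes were not tested.

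From PN2 to PN14, where 1 of the 10 genes was called, library size alone and no filter each called 4, DESeq2 size factors and a mean of at least 1 CPM each 2, and the Wald and exact tests each 3. From PN28 to adult, where none was called, library size alone, no filter and the Wald test each called 1 and the exact test 2. From E18.5 to adult, where 8 were called, library size alone called 4 and the Wald test 5. Of all genes, library size alone called 34.5% from PN2 to PN14 and 53.6% from E18.5 to adult, beside 23.0% and 44.9% with TMM. The Wald and exact tests called 21.3% and 27.6% of all genes from PN2 to PN14 and 5.54% and 6.79% from PN28 to adult. For the other alternative fits and intervals no share of all genes was computed, so their counts cannot be set against it. Of the wider genes, library size alone called 2, no filter 1, the Wald test 1 and the exact test 2 from E18.5 to PN2 (0 with TMM and the quasi-likelihood test). From PN2 to PN14 library size alone called 29 and a mean of at least 1 CPM 7 (14 before), and from PN14 to PN28 the exact test called 1 (0 before). From PN28 to adult no filter and the Wald test each called 4, the exact test 5 and a mean of at least 1 CPM 0 (1 before), and from E18.5 to adult library size alone called 39 (21 before).

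Leaving out a PN14 replicate gave between 2 and 4 of the 10 genes with a 2-fold difference from PN2 to PN14 (5 with both). From PN14 to PN28 it gave between 0 and 2 (1 with both), and 4 of the wider genes without either (2 with both). The share of all genes with such a difference was not computed, so these counts do not set the axis or the wider genes apart. The log2 change of the Inhba to Inhbb ratio from PN2 to PN14 was -1.97 in TMM CPM (-1.96 in FPKM). Library size alone reversed Gdf11 (-0.0082), Inhbb (-0.32) and Fstl3 (-0.52) from PN2 to PN14, Fstl3 from PN14 to PN28 (-0.081) and Acvr2b from E18.5 to adult (-0.26), all on the log2 scale and none of them called.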
